A study of Mus musculus with 2 samples.

Results

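The S phase and DNA replication genes are 40 genes chosen by symbol from a list, 40 of the 56748 genes counted in the series, and all 40 were detected. They were followed in lineage-depleted bone marrow of C57BL/6 mice that were either Nat10 conditional knockouts (Nat10 cKO, here cKO) or wild type (WT). Nat10 encodes the enzyme that makes N4-acetylcytidine in RNA, and the series asks how its loss bears on haematopoietic stem cells (HSCs). The promoter that drives Cre, the deleted exons and the age of the mice are not given in the sources used here. Per its description, the series used 5 cKO or WT mice, without saying whether in all or per genotype, and no label assigns cells to them. Single-cell RNA was read as 3′ tags in droplets, with 1 library per genotype, so no difference between genotypes has a replicate check and no test between genotypes was made. All intervals below are 95% intervals that cover counting error only, and those for ratios of shares are wider than that level needs.

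The members encode the machinery that copies DNA in S phase. Before S phase, Cdc6 and Cdt1 load the MCM helicase onto origins, and Cdc45 and the GINS complex switch it on when the cell is committed. DNA polymerase alpha with primase then starts each strand, the clamp loader places the Pcna clamp, nucleotides come from ribonucleotide reductase and thymidylate synthase, and histone chaperones rebuild chromatin behind the fork. In bone marrow these transcripts mark dividing progenitors, while the most primitive stem cells divide rarely.

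Promoter sequences are shown for the 3 members with the highest and the 3 with the lowest cKO over WT ratios in HSC-containing cells among those with an entry, because these 6 bound the pattern described below. The windows run 5′ to 3′ over 300 bases, 250 before and 50 after the gene's start, and come from RefSeq with the build GRCm38.p6, whereas the deposited counts were made on mm39. Capitals mark the E2F motifs TTTCCCGC, TTTCGCGC, TTTGCCGC and TTTGGCGC and the motif CCAAT, each searched on both strands; no marked motif overlaps another. The higher ones are Ccne1 at chr7:38107441-38107740 on the minus strand, Rrm2 at chr12:24708004-24708303 on the plus strand and Rpa3 at chr6:8259092-8259391 on the minus strand.
Ccne1: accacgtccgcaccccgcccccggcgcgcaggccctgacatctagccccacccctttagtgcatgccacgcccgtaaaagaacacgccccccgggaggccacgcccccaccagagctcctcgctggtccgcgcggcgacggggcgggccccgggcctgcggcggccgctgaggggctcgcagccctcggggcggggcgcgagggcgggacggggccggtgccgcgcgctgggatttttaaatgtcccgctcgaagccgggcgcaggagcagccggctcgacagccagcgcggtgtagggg
Rrm2: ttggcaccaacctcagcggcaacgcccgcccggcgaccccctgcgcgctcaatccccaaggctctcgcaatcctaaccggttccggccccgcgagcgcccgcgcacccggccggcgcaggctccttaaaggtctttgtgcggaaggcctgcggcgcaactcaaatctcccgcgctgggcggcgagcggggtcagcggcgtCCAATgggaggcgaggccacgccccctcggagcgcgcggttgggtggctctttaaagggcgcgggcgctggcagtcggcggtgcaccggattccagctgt
Rpa3: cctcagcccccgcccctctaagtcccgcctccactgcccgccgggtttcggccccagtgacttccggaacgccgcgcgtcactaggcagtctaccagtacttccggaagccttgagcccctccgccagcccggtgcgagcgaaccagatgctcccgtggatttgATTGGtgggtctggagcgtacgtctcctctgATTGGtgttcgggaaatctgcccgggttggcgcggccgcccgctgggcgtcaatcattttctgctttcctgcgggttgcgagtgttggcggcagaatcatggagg
The lower ones are Dtl at chr1:191575495-191575794, Pola1 at chrX:93632106-93632405 and Mcm2 at chr6:88898731-88899030, all on the minus strand.
Dtl: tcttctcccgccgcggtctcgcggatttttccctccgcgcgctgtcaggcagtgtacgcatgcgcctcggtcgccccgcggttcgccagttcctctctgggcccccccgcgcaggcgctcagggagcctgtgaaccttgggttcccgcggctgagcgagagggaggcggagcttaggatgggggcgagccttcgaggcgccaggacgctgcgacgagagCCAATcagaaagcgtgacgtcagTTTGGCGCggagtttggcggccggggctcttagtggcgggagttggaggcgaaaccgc
Pola1: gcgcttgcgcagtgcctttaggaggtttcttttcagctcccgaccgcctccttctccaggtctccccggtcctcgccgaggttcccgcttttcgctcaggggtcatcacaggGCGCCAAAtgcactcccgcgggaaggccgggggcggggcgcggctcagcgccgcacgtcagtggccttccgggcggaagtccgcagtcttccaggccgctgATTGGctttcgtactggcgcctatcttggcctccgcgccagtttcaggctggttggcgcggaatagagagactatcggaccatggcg
Mcm2: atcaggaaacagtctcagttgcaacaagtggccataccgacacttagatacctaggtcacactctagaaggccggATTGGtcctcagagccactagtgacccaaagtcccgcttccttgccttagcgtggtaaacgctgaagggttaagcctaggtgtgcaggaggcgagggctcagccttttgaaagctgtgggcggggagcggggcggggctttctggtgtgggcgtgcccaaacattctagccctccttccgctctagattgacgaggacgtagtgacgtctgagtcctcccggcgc
Of these 6 windows, those of Dtl and Pola1 held 1 E2F motif each, and 5 held at least 1 CCAAT, all but that of Ccne1. Over the 31 members with an entry, 11 (35.5%) had an E2F motif in a window, against 704 of 27025 genes in the whole table (2.6%). CCAAT was found for 22 of the 31 members (71.0%) and for 41.1% of all genes. The median share of G and C was 59.8% in member windows and 52.7% in all windows. The 11 members with an E2F motif had a median log2 ratio of 0.13 in HSC-containing cells, within a range of −0.19 to 0.35, and the 20 without had 0.31, within −0.13 to 0.86. A match describes these letters and is neither a site nor a cause. Mcm4, Usp1, Gins1, Rfc2, Dscc1, Gins2, Ccne2, Exo1 and Tipin had no entry.

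Transcripts were counted by unique molecular identifiers (UMIs), 271499717 over 13479 cKO barcodes and 288303275 over 15848 WT barcodes. Filtering kept 10695 cKO cells, of median depth 21450 UMIs, and 11945 WT cells, of median depth 18315 UMIs, and 40 barcode sequences occurred in both libraries. Clusters were named "-like" from marker genes, with the cell cycle genes left out of clustering, and the 10 classes that had 100 or more cells in each library were compared. Nat10 itself stood at 38.7 CPM (UMIs of a gene scaled to the same total in each set of cells) in cKO and 47.1 CPM in WT cells, and 3′ tags outside the deleted part of a gene do not check a deletion. CPM here counts 3′ tags and is not scaled to gene length, so values are compared between libraries and classes and not between genes.

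The members were expressed most in erythroid cells and least in mature lymphoid cells, in both libraries. Summed over the 40 members, erythroblast-like cells held 10266 CPM in the cKO and 11028 CPM in the WT library. Erythroid progenitor-like cells held 6443 CPM in cKO and 6865 CPM in WT, second in both. T, NK and innate lymphoid-like cells were lowest, with 1444 CPM in cKO and 1458 CPM in WT, so that the highest class exceeded the lowest 7.11-fold in cKO and 7.57-fold in WT. Between them in WT came monocyte-like, megakaryocyte-like, HSC and multipotent progenitor-like (HSC/MPP-like), and cells like granulocyte-monocyte progenitors and early neutrophils (GMP-like), from 4623 down to 3860 CPM. In cKO the HSC/MPP-like cells stood above the megakaryocyte-like cells, at 4404 against 3989 CPM. Of the 40 members, 37 in cKO and 38 in WT were highest in erythroblast-like cells, and 39 had the same top class in both libraries. The exceptions in both libraries were Rfc2, a clamp loader subunit, highest in basophil and mast-like cells, and Hells, a chromatin remodeller, highest in monocyte-like cells. Ung, which removes uracil from DNA, was highest in HSC/MPP-like cells in the cKO library, at 26.81 CPM against 26.75 CPM in erythroblast-like cells.

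**Figure D1:**
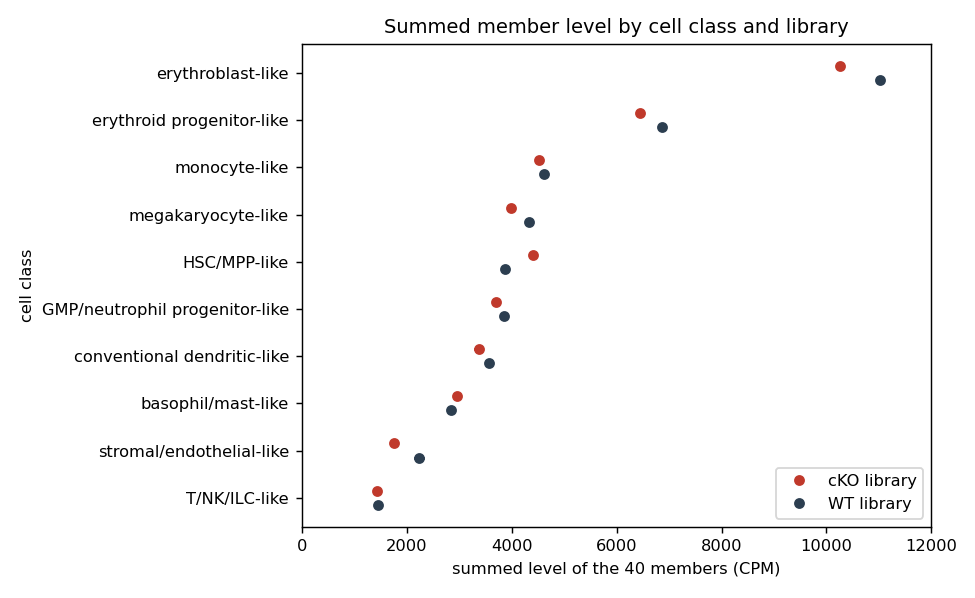
Summed CPM of the 40 members (x axis) in each of the 10 cell classes (y axis), with cKO points above WT points; the counting intervals are mostly narrower than the points. Erythroblast-like cells stand at 10266 CPM in cKO and 11028 CPM in WT, and HSC/MPP-like cells are the class where the cKO point lies farthest right of the WT point.

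The range across classes differed between members. Usp1, which removes ubiquitin from Pcna, varied least, 3.46-fold between its highest and lowest class in cKO and 3.50-fold in WT. Dscc1, a subunit of an alternative clamp loader, varied 23.8-fold in WT and Ccne1, the E-type cyclin that drives S phase entry, 23.4-fold in WT, from classes where few of their UMIs were counted.

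Over all kept cells the summed level was 5514 CPM in cKO and 5810 CPM in WT, a log2 ratio of −0.08 with an interval of −0.08 to −0.07. The members' median log2 ratio was −0.09, beside −0.11 for all 21256 genes that reached 50 UMIs over the 2 libraries. Rpa3 and Ccne1 were at least 1.2-fold higher, 5 members were at least 1.2-fold lower and the others lay between, whereas 17.0% of all genes were higher and 32.5% lower by that fold. The 5 lower ones were Dtl, Pola1, Mcm2, Cdt1 and Uhrf1. Scaling by trimmed mean of M-values (TMM), which sets the typical gene level rather than the total equal, adds 0.11 to every log2 ratio in all kept cells, 0.18 in HSC/MPP-like, 0.10 in erythroid progenitor-like and 0.15 in GMP-like cells. With it the summed ratio was 0.03 over all kept cells, 0.0057 in erythroid progenitor-like and 0.09 in GMP-like cells, each of opposite sign to the value by total UMIs.

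Erythroid progenitor-like cells, 2680 in cKO and 1788 in WT, had a summed log2 ratio of −0.09, with an interval of −0.10 to −0.09. The members' median was −0.07, beside −0.10 for 15315 genes, and 1 member was at least 1.2-fold higher and 5 lower, against 10.4% of all genes higher and 25.4% lower. The higher one was Rpa3, and the lower ones were Dtl, Pola1, Cdt1, Mcm2 and Uhrf1. Each of the 5 clusters of the class had a lower sum in cKO, with log2 ratios between −0.14 and −0.07. GMP-like cells, 757 in cKO and 966 in WT, had a summed log2 ratio of −0.06, with an interval of −0.07 to −0.05. With clustering at resolution 1.0 it was 0.00701, of the opposite sign. In the class as clustered here, 4 members were at least 1.2-fold higher and 6 lower, against 13.1% of all genes higher and 36.1% lower, and the members' median of −0.06 stood beside −0.15 for all 13527 genes. Rpa3, Ccne1, Tyms and Rrm2 were the higher ones, and Dtl, Pola1, Mcm2, Cdt1, Uhrf1 and Mcm10 the lower ones.

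In HSC/MPP-like cells most members were higher in the cKO library. The 353 cKO cells held 4404 CPM and the 554 WT cells 3874 CPM, a log2 ratio of 0.19 with an interval of 0.17 to 0.20. Of the 40 members 35 had a ratio above 0, all but Dtl, Pola1, Mcm2, Cdt1 and Ung, against 35.5% of 12418 genes. Of the members 19 were at least 1.2-fold higher and none was 1.2-fold lower, whereas among the same genes 17.6% were higher and 41.8% lower by that fold. The members' median log2 ratio was 0.25 and that of all genes −0.17. Under TMM scaling 32 members passed the fold upward, against 28.7% of all genes, and the summed log2 ratio was 0.36, in the same direction.

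**Figure D2:**
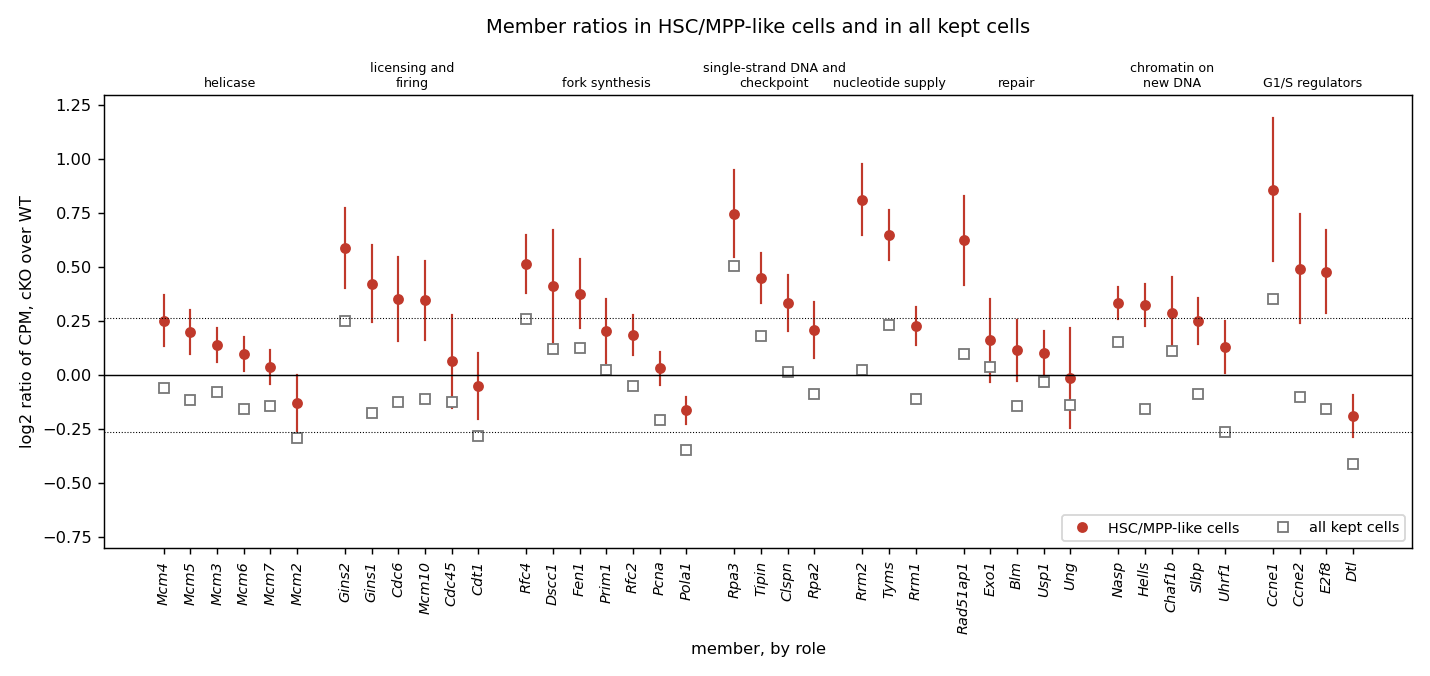
Log2 ratio of CPM, cKO over WT (y axis), for each member grouped by role (x axis), in HSC/MPP-like cells (filled circles with counting intervals) and in all kept cells (open squares); dotted lines mark 1.2-fold. Ccne1, Rrm2 and Rpa3 stand highest in HSC/MPP-like cells at 0.86, 0.81 and 0.75, and Dtl, Pola1 and Mcm2 stand lowest in both.

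Part of this difference went with the mix of clusters inside the class. Cluster 31 held 339 cKO and 391 WT cells, and its members summed to 4455 CPM in cKO and 4138 CPM in WT, a log2 ratio of 0.11 with an interval of 0.09 to 0.13. Cluster 35 held 14 cKO and 163 WT cells, with 2497 CPM in cKO and 2926 CPM in WT, a log2 ratio of −0.23 with an interval of −0.34 to −0.11. Mecom and Hlf, 2 transcription factor genes of stem cells, were among the 10 leading genes of both clusters. The WT library thus contributed most of the cells of the lower cluster. With the cKO clusters weighted to the WT mix, the summed log2 ratio of the class was 0.06, the median 0.11 and the count of members at least 1.2-fold higher 11. In that weighting the 14 cKO cells of cluster 35 stand for as large a part of the class as its 163 WT cells. These weighted values thus rest heavily on few cells. Keeping the called doublets gave a summed log2 ratio of 0.04, with 10 members higher and 2 lower by that fold. Coarser clustering at resolution 1.0 gave 0.06, with 10 higher and 1 lower. Both redrew the class, so these values rest on other sets of cells. Its clusters held 802 and 523 cells with doublets kept and 802 and 457 at resolution 1.0, against 730 and 177 here. The share of all genes past that fold is not given for these alternatives. Within cluster 31 alone, chosen after seeing the data, 31 of 40 members had a ratio above 0, and the share of all genes above 0 is not given there. Of the members 14 were at least 1.2-fold higher and 1, Dtl, lower, against 16.0% of all genes higher and 35.7% lower, and the median was 0.18 beside −0.13 for all genes. In cluster 35 the direction was the opposite: of 38 members past 50 UMIs, 10 were at least 1.2-fold higher and 18 lower, against 30.1% of all genes higher and 32.4% lower, and the median was −0.20 beside −0.01 for all genes.

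Markers of the class itself also differed between the libraries in these cells. None of the 15 HSC/MPP markers was at 0 in either library, and their summed level was 3397 CPM in cKO and 5703 CPM in WT. The 12 GMP markers summed to 8139 CPM in cKO and 8285 CPM in WT, the 12 erythroid progenitor markers to 502 and 608 CPM, and the 12 megakaryocyte markers to 229 and 425 CPM, cKO before WT in each pair. The other lists went both ways. The 12 basophil and mast markers summed to 257 CPM in cKO and 180 CPM in WT, and the 13 erythroblast markers to 550 and 536 CPM. The 12 monocyte markers summed to 354 CPM in cKO and 474 CPM in WT. Median depth was 28390 UMIs per cell in cKO and 21592.5 in WT. Among cells with 5000 to 19999 UMIs, which made up 20.1% of cKO and 39.9% of WT cells of the class, the members summed to 3782 CPM in cKO and 2748 CPM in WT. Between 20000 and 39999 UMIs the sums were 4743 CPM in cKO and 4646 CPM in WT, and at 40000 or more they were 3928 CPM in cKO and 3358 CPM in WT. The part of marker level and depth in the result was not tested.

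The share of cells with clear member signal moved the same way. Each cell was thinned to 2000 UMIs, which left out 1 cKO and 16 WT cells of the class. At least 5 member UMIs were then present in 297 of 352 cKO cells (84.4%, exact binomial interval 80.2% to 88.0%) and in 364 of 538 WT cells (67.7%, 63.5% to 71.6%), a ratio of 1.25 with an interval of 1.07 to 1.46. That interval of the ratio treats the numbers of cells as Poisson counts, so for shares this high it is too wide. Without thinning the shares were 99.7% in cKO and 98.2% in WT. With 4 or 5 UMIs, next to the threshold, were 45 cKO and 86 WT cells. Inside cluster 31 the shares were 86.1% in cKO and 77.9% in WT, and inside cluster 35 they were 42.9% and 44.2%. With the cKO clusters weighted to the WT mix, the ratio of shares in the class was 1.08, which rests heavily on the 14 cKO cells of cluster 35. Shares were 98.1% in both libraries for erythroid progenitor-like cells and 78.0% in cKO against 78.2% in WT for GMP-like cells. As a level for cells of a class with little division, plasma-like cells gave 13.5% in cKO and 26.5% in WT at median depths of 17192 and 22190 UMIs, and T, NK and innate lymphoid-like cells gave 17.1% in cKO and 16.8% in WT at 4751 and 6312 UMIs. The WT plasma-like value includes 8 cells of cluster 44, all of them past the threshold and with no cKO counterpart, and in cluster 43, which holds the rest, the shares were 13.5% in cKO and 12.2% in WT.

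**Figure D3:**
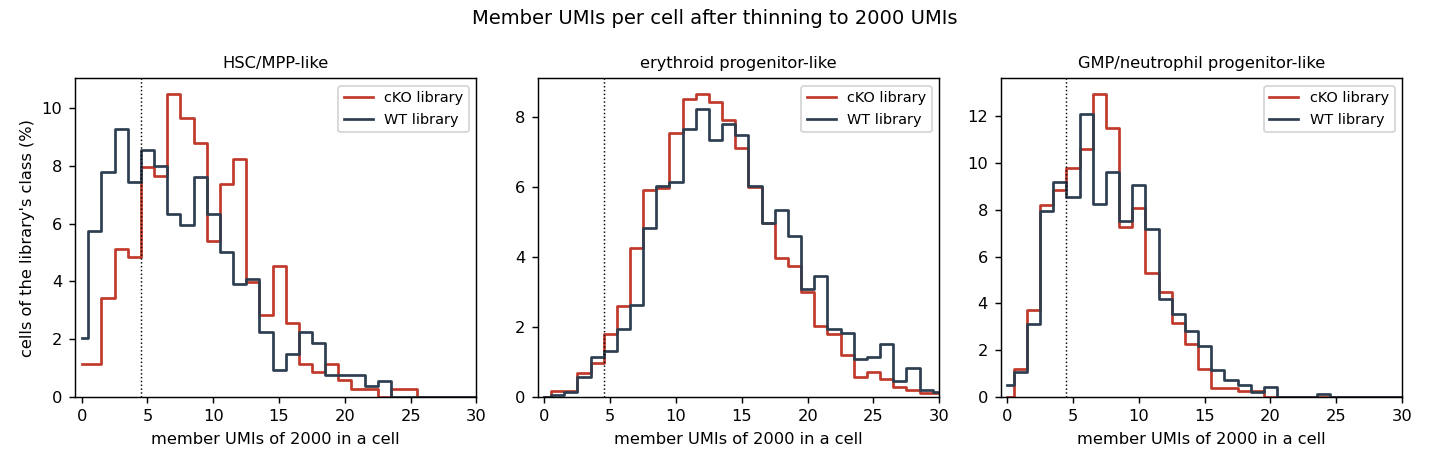
Percent of cells (y axis) by the number of member UMIs among 2000 UMIs per cell (x axis), for the cKO and WT libraries in 3 progenitor classes; the dotted line marks the threshold of 5. In HSC/MPP-like cells 84.4% of cKO and 67.7% of WT cells lie right of the line, while in GMP-like cells the shares are 78.0% and 78.2%.

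Of the 6 helicase subunits, Mcm4 and Mcm2 lay at the ends of the range over all kept cells and in the 3 progenitor classes. Mcm7, which had the most UMIs of the group in all kept cells, stood at 261 CPM in cKO and 288 CPM in WT, a log2 ratio of −0.14. Mcm4 had the highest ratio, with 114 CPM in cKO and 95.3 CPM in WT HSC/MPP-like cells (0.25, interval 0.14 to 0.37) and −0.06 in all kept cells. Mcm2 had the lowest, with 80.6 CPM in cKO and 88.2 CPM in WT HSC/MPP-like cells (−0.13, −0.26 to 0.00), 136 and 170 CPM in erythroid progenitor-like cells (−0.32) and 65.0 and 86.5 CPM in GMP-like cells (−0.41). Mcm3, Mcm5, Mcm6 and Mcm7 lay between 0.04 and 0.20 in HSC/MPP-like cells.

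Among the genes that load and fire origins, Gins2 and Cdt1 ran in opposite directions. Gins2, a GINS subunit, had 51.6 CPM in cKO and 34.3 CPM in WT HSC/MPP-like cells (0.59, 0.40 to 0.77), and its ratio was 0.25 in all kept, 0.19 in erythroid progenitor-like and 0.26 in GMP-like cells. Cdt1, the loading factor, had 91.6 CPM in cKO and 111 CPM in WT over all kept cells (−0.28), and 115 CPM in cKO against 145 CPM in WT erythroid progenitor-like cells (−0.33). Its ratio of −0.05 in HSC/MPP-like cells had an interval of −0.20 to 0.10 that spans 0. Cdc6, its loading partner, was at 95.8 CPM in cKO and 104 CPM in WT over all kept cells, and its ratio was 0.35 in HSC/MPP-like cells. Gins1 and Mcm10, which help to activate the helicase, had ratios of 0.42 and 0.35 in HSC/MPP-like cells, and Cdc45 had 0.07.

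At the fork, the polymerase gene and the clamp loader genes differed. Pola1, the catalytic subunit of DNA polymerase alpha, had 352 CPM in cKO and 447 CPM in WT over all kept cells (−0.35), 359 CPM in cKO and 402 CPM in WT HSC/MPP-like cells (−0.16, −0.22 to −0.10), and 183 CPM in cKO and 245 CPM in WT GMP-like cells (−0.42). Prim1, the primase that works in the same complex, had a ratio of 0.02 over all kept cells and 0.20 in HSC/MPP-like cells. Rfc4, a clamp loader subunit, had 142 CPM in cKO and 118 CPM in WT over all kept cells (0.26), and 92.8 CPM in cKO and 65.0 CPM in WT HSC/MPP-like cells (0.51, 0.38 to 0.65). Fen1, which trims flaps on the lagging strand, was the highest of the group in GMP-like cells at 0.22. Pcna, the clamp itself, had 248 CPM in cKO and 243 CPM in WT HSC/MPP-like cells, a ratio of 0.03 whose interval of −0.04 to 0.11 spans 0. Rfc2 and Dscc1 had ratios of 0.19 and 0.41 there.

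Of the genes that bind single-stranded DNA and signal fork stalling, Rpa3 stood apart from Rpa2, its partner in replication protein A. Rpa3 had 54.6 CPM in cKO and 38.4 CPM in WT over all kept cells (0.51, 0.47 to 0.54) and 45.6 CPM in cKO and 27.2 CPM in WT HSC/MPP-like cells (0.75, 0.55 to 0.95). Rpa2 had ratios of −0.09 and 0.21 in the same cells, −0.16 in erythroid progenitor-like and −0.05 in GMP-like cells. Tipin, which protects stalled forks, had 171 CPM in cKO and 150 CPM in WT over all kept cells (0.18) and 0.45 in HSC/MPP-like cells. Clspn, the checkpoint mediator, was at 0.02 and 0.33 in these cells.

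Among the roles, nucleotide supply had the highest summed ratio in HSC/MPP-like cells, where its 3 members summed to 399 CPM in cKO and 292 CPM in WT (0.45, 0.39 to 0.51). Rrm2, the regulated subunit of ribonucleotide reductase, had 71.3 CPM in cKO and 40.6 CPM in WT (0.81, 0.65 to 0.98), although its ratio over all kept cells was 0.03. Tyms, thymidylate synthase, had 132 CPM in cKO and 84.2 CPM in WT (0.65), and its ratio was 0.23 in all kept, 0.23 in erythroid progenitor-like and 0.36 in GMP-like cells. Rrm1, the large reductase subunit, had 195 CPM in cKO and 167 CPM in WT HSC/MPP-like cells (0.23) and was the lowest of the 3 in those cells and, at −0.11, −0.16 and −0.16, in all kept, erythroid progenitor-like and GMP-like cells.

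The 5 repair genes summed to a log2 ratio of 0.16 in HSC/MPP-like cells (0.09 to 0.23) and −0.04 over all kept cells. In stromal and endothelial-like cells they summed to 138 CPM in cKO and 178 CPM in WT (−0.37, −0.60 to −0.14). All 5 were at least 1.2-fold lower there, but Ung was under the minimum of UMIs set for counting genes. Of all genes past that minimum in these cells, 21.5% were lower and 23.2% higher by that fold. Rad51ap1, which acts in DNA repair, had 41.5 CPM in cKO and 26.9 CPM in WT HSC/MPP-like cells (0.62, 0.42 to 0.83) and a ratio of 0.10 over all kept cells. Usp1 had 162 CPM in cKO and 165 CPM in WT over all kept cells (−0.03). Blm, the Bloom syndrome helicase, was lowest over all kept and GMP-like cells at −0.14 and −0.18, and Ung was lowest in HSC/MPP-like cells at −0.01, with an interval of −0.24 to 0.22. In erythroid progenitor-like cells Blm and Ung were both at −0.22. Exo1, a mismatch repair nuclease, had 0.04 over all kept and 0.16 in HSC/MPP-like cells.

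Genes for chromatin on new DNA summed to 748 CPM in cKO and 614 CPM in WT HSC/MPP-like cells (0.28, 0.24 to 0.33). Nasp, a histone chaperone, had 286 CPM in cKO and 227 CPM in WT there (0.33) and 364 CPM in cKO and 327 CPM in WT over all kept cells (0.15). Uhrf1, which brings the maintenance methyltransferase to hemimethylated DNA, had 126 CPM in cKO and 151 CPM in WT over all kept cells (−0.26), and its ratios were −0.27 in erythroid progenitor-like, −0.33 in GMP-like and 0.13 in HSC/MPP-like cells. Chaf1b, a subunit of chromatin assembly factor 1, was highest of the group in GMP-like cells at 0.12, with an interval of −0.01 to 0.24. Hells had 165 CPM in cKO and 131 CPM in WT HSC/MPP-like cells (0.33), and Slbp, which binds the stem-loop of histone mRNA, had 0.25.

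The G1/S regulators held both ends of the list in HSC/MPP-like cells. Over all kept, erythroid progenitor-like and GMP-like cells they held the low end with Dtl, while Rpa3 was highest. Ccne1 had 18.03 CPM in cKO and 9.95 CPM in WT HSC/MPP-like cells, from 185 and 130 UMIs (0.86, 0.53 to 1.19), and 94.3 CPM in cKO and 73.9 CPM in WT over all kept cells (0.35). Dtl, the substrate receptor of the ubiquitin ligase that degrades Cdt1 in S phase, had 159 CPM in cKO and 211 CPM in WT over all kept cells (−0.41). Dtl was at 144 CPM in cKO and 165 CPM in WT HSC/MPP-like cells (−0.19, −0.29 to −0.09), in erythroid progenitor-like cells at 186 and 252 CPM (−0.44), and in GMP-like cells at 89.1 and 122 CPM (−0.45). Ccne2, the other E-type cyclin, had ratios of −0.10 over all kept and 0.49 in HSC/MPP-like cells. E2f8, a repressor of replication genes, had −0.15 and 0.48.

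A few members kept 1 direction in every class compared. Rpa3, Gins2 and Rfc4 were higher in cKO in all 10 classes, also under TMM scaling. Rpa3 ranged from 0.41 in stromal and endothelial-like cells to 1.07 in T, NK and innate lymphoid-like cells and passed 1.2-fold in all 10. Dtl, Pola1, Mcm2 and Cdt1 were lower in all 10 by total UMIs, while under TMM scaling only Dtl stayed below 0 in all 10, because Pola1, Mcm2 and Cdt1 turned above 0 in HSC/MPP-like cells and Cdt1 also in basophil and mast-like cells. The remaining 33 members had both signs. The 10 classes share the same 2 libraries, so they do not replicate each other. The share of all genes that kept 1 direction in the 10 classes is not given here, so these counts describe the members only.

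**Figure D4:**
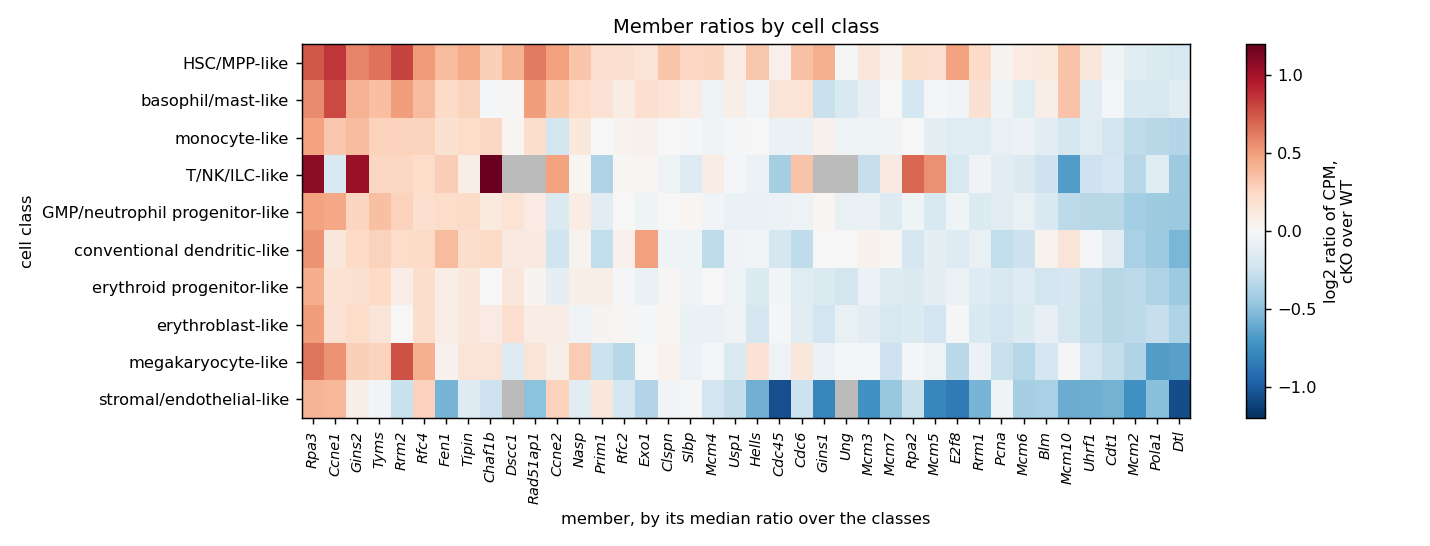
Colour map of the log2 ratio of CPM, cKO over WT, for each member (x axis, by its median ratio over the classes) in 10 cell classes (y axis); grey marks members under 50 UMIs over the 2 libraries. Rpa3 is above 0 in all 10 classes, Dtl is below 0 in all 10, HSC/MPP-like cells have 35 of 40 members above 0, and stromal and endothelial-like cells have 32 of 38 below 0. Of all genes, 35.5% are above 0 in HSC/MPP-like and 51.3% in stromal and endothelial-like cells.

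Stromal and endothelial-like cells had the lowest summed ratio of the 10 classes. The 382 cKO cells held 1760 CPM and the 214 WT cells 2233 CPM, a log2 ratio of −0.34 with an interval of −0.41 to −0.28, and −0.36 under TMM scaling. Of 38 members past the minimum of 50 UMIs, 22 were at least 1.2-fold lower and 4, Rpa3, Ccne1, Rfc4 and Ccne2, higher, against 21.5% of all genes lower and 23.2% higher. The members' median was −0.32, beside 0.01 for all genes. The 3 clusters of the class differed, with −0.74 in cluster 13, −0.20 in cluster 39 and 0.06 in cluster 12, and the sums rest on 4520 cKO and 3702 WT UMIs. Cluster 13 held 215 of the cKO and 96 of the WT cells. The share of cells did not go the same way as the sum. After thinning, 24.2% of 277 cKO and 22.1% of 113 WT cells had at least 5 member UMIs of 2000. That ratio of 1.09 had an interval of 0.68 to 1.81, and 105 cKO and 101 WT cells were too shallow to count. The other classes had summed log2 ratios of −0.10 in erythroblast-like, −0.12 in megakaryocyte-like, −0.08 in conventional dendritic-like, −0.03 in monocyte-like, −0.01 in T, NK and innate lymphoid-like and 0.05 in basophil and mast-like cells. Of these, the monocyte-like value turned to 0.09 under TMM scaling.

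The members were set beside G2/M genes to see where in the cycle their transcripts were counted, with 50 G2/M genes counted among the same 2000 UMIs. Within the HSC/MPP-like class the members were lower where G2/M signal was high. Cells with 15 or more G2/M UMIs had 3127 CPM of members in cKO and 2878 CPM in WT, cells with 5 to 14 had 4774 CPM in cKO and 4604 CPM in WT, and cells with under 5 had 4662 CPM in cKO and 3744 CPM in WT. The libraries differed most in the cells with least G2/M signal, which made up 28.7% of cKO and 54.3% of WT cells. These cells also differed in median depth, 21527 UMIs in cKO and 17751.5 in WT, and they were not split by cluster. The part of depth and cluster in that difference was not tested. Comparing 15 or more with 5 to 14 G2/M UMIs, all 40 members were lower in cKO and 38 in WT, with median folds of 0.64 in cKO and 0.61 in WT. In GMP-like cells the members were also lower, with 39 of 40 members lower in each library and medians of 0.69 in cKO and 0.70 in WT. Erythroid progenitor-like cells had 28 members lower in cKO and 18 in WT, with medians of 0.98 in cKO and 1.01 in WT. The share of all genes lower in these comparisons is not given here, so the counts describe the members only. HSC/MPP-like cells with 15 or more G2/M UMIs were also deeper than those with 5 to 14. Their median depths were 39214 against 28762 UMIs in cKO and 37472 against 28874 in WT. Ung had the steepest drop in HSC/MPP-like cells, to 0.11 of its level in cKO and 0.14 in WT, on 6 cKO and 9 WT UMIs in the cells with most G2/M signal.

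**Figure D5:**
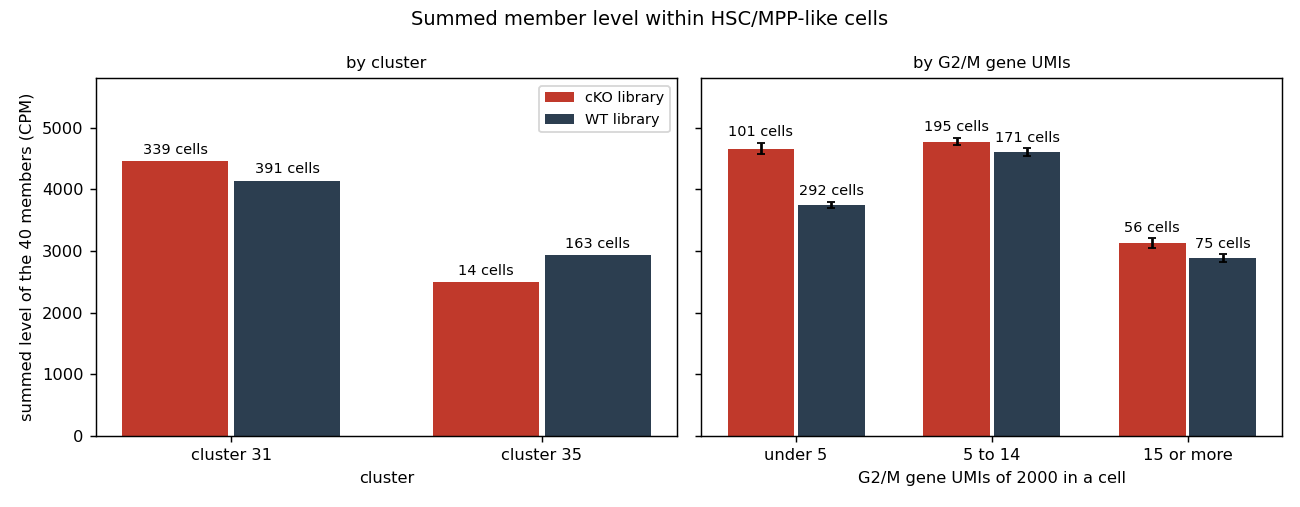
Summed CPM of the 40 members (y axis) in HSC/MPP-like cells, by cluster (left, no error bars) and by the number of G2/M gene UMIs among 2000 (right, with Poisson intervals), with cKO bars left of WT bars and the number of cells above each bar. Cluster 35 holds 14 cKO and 163 WT cells and has less member signal than cluster 31, and the bars differ most between libraries where G2/M UMIs are under 5.

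The other genes of the pathway were counted in the same way. In HSC/MPP-like cells 27 of 70 other replication genes were at least 1.2-fold higher in cKO and 4 lower, with a median log2 ratio of 0.16, and 22 of 50 G2/M genes were higher and 1 lower, with a median of 0.23, where 17.6% of all genes were higher and 41.8% lower. In erythroid progenitor-like cells 2 other replication genes were higher and 5 lower, against 10.4% and 25.4% of all genes. In GMP-like cells 5 were higher and 15 lower, against 13.1% and 36.1%. Over all kept cells 7 were higher and 10 lower, against 17.0% and 32.5%. Dctpp1, which clears unwanted nucleotides, stood at 168 CPM in cKO and 125 CPM in WT (0.44), and Asf1a, a histone chaperone, at 0.34. E2f2, an activator of S phase genes, had 41.03 CPM in cKO and 72.0 CPM in WT (−0.81), and Mcm9, a relative of the helicase subunits, −0.41. Of the G2/M genes, Tubb4b and Cks1b were highest over all kept cells at 0.48 and 0.22, and Cdc25b and Lbr lowest at −0.72 and −0.45.

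Among 12 genes for G1 cyclins, their kinases and kinase inhibitors, 11 passed the minimum of 50 UMIs over all kept cells, with 3 at least 1.2-fold higher and 4 lower, against 17.0% of all genes higher and 32.5% lower. Ccnd1, cyclin D1, had 22.2 CPM in cKO and 12.6 CPM in WT over all kept cells (0.82). Cdkn2b, an inhibitor of Cdk4 and Cdk6, had 0.96 at 0.15 CPM in cKO and 0.08 CPM in WT. Cdk6 had 759 CPM in cKO and 1004 CPM in WT (−0.40), and Cdkn1a, the p21 inhibitor, 11.3 CPM in cKO and 14.3 CPM in WT (−0.34). In HSC/MPP-like cells 10 of the 12 genes passed the minimum, with a median log2 ratio of −0.13. There 2 were at least 1.2-fold higher and 4 lower, against 17.6% of all genes higher and 41.8% lower.

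Gene span, the distance from the start to the end of the annotated gene, went along with the ratios over all genes. Spans were found for 91.8% of the gene IDs and all 40 members. Spearman's rho across genes between span and log2 ratio was −0.25 over the 40 members and −0.38 over 12208 genes in HSC/MPP-like cells. It was −0.30 over members and −0.28 over all genes in erythroid progenitor-like cells. The genes share libraries and are not independent. Pola1, with a span of 327389 bases, was the 1 member over 100000 bases. For HSC/MPP-like cells, the 25 members spanning 10000 to 30000 bases had a median log2 ratio of 0.29, beside −0.07 for all genes of that span, and the 8 shorter members 0.21, beside 0.07. The part of span in the result was not tested.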

How the data were processed

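The deposited values are counts of UMIs per gene and barcode, 1 matrix per library. Per the submitters' processing notes, the authors counted reads with Cell Ranger 7.1.0 on mm39. The rule that called barcodes as cells was not given in the sources used here. Barcodes with at least 1000 UMIs, 500 genes and at most 10% mitochondrial UMIs passed, 11239 in cKO and 12537 in WT, and Scrublet (scanpy 1.11.5, expected share 8%) marked 544 (4.84%) and 592 (4.72%) as doublets, which were removed. Both libraries were clustered together (10000 UMIs per cell, log scale, 2000 variable genes without cell cycle genes, 30 components, 15 neighbours, Leiden resolution 1.5; igraph 0.11.9). A cluster needed at least 3 markers detected at a fold of 2; 2229 cKO and 2809 WT cells stayed unnamed.

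UMIs were summed per library and class and scaled to CPM; log2 ratios had 0.5 added to each sum. Intervals are Poisson for sums, conditional binomial for ratios and exact binomial for shares (scipy 1.17.1). For ratios of shares the conditional form treats numbers of cells as Poisson counts and is too wide. The interval for ratios of sums was tested on simulated Poisson counts without variation between cells, and the other intervals were not tested. The alternatives were TMM (edgeR 4.0.16) and median-of-ratios (DESeq2 1.42.0) scaling, doublets kept, stricter filters, other clusterings, equal weight per cell, the WT mix of clusters, and other floors, thinning depths and thresholds. G2/M strata and cluster 31 alone were added after seeing the data. All 40 members are named; those given in most detail are, per role, the member with most CPM and those with the top and bottom ratio over all kept cells and in the 3 progenitor classes, and of each other list the 2 highest and 2 lowest ratios. The members and lists were chosen with earlier results of these data known. Gene spans came from GENCODE and promoters from RefSeq, matched by gene ID and symbol.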

Additional observations from a re-analysis of the deposited data

Results flagged for a closer look

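The summed member level ran in opposite directions in the progenitor classes by total UMIs. Its log2 ratio, cKO over WT, was 0.185 in HSC/MPP-like cells, −0.0915 in erythroid progenitor-like cells and −0.0604 in GMP-like cells, each with a counting interval on 1 side of 0. With 1 library per genotype the difference between classes was not tested.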

How the results depend on the processing

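With 1 library per genotype the results carry counting error only, and differences between mice cannot be seen. No paired analysis was possible because each genotype had 1 library. Of 139 values of the main results under alternatives, 74 stayed within their counting interval, or within 1.5 times a count, and 65 did not. Those that did not are given here as log2 ratios, cKO over WT, and what caused each difference was not tested. The intervals for ratios of shares are too wide, so fewer of those ratios might stay within a binomial one. Keeping doublets or clustering otherwise redrew the classes, so those values rest on other sets of cells.

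Over all kept cells the summed ratio of −0.0753 was 0.0307 with TMM scaling, 0.0303 with median-of-ratios scaling, −0.0816 with doublets kept, −0.0717 with every cell weighing alike, −0.0656 with the WT mix of clusters and −0.0548 without Pola1. The members' median of −0.0875 was 0.0185 with TMM scaling, 0.0181 with median-of-ratios scaling, −0.0998 with doublets kept and −0.0372 with the WT mix of clusters.

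For HSC/MPP-like cells the summed ratio of 0.185 was 0.361 with TMM scaling, 0.357 with median-of-ratios scaling, 0.0438 with doublets kept, 0.0587 at resolution 1.0, 0.0823 at resolution 2.5, 0.262 with every cell weighing alike, 0.0562 with the WT mix of clusters, 0.22 without Pola1 and 0.106 in cluster 31 alone. The members' median of 0.253 was 0.429 with TMM scaling, 0.424 with median-of-ratios scaling, 0.0918 with doublets kept, 0.113 at resolution 1.0, 0.129 at resolution 2.5, 0.284 with every cell weighing alike, 0.109 with the WT mix of clusters and 0.177 in cluster 31 alone. The 19 members at least 1.2-fold higher became 32 with TMM scaling, 32 with median-of-ratios scaling, 10 with doublets kept, 10 at resolution 1.0, 11 at resolution 2.5 and 11 with the WT mix of clusters. Of these alternatives, the share of all genes past that fold is given only for TMM scaling. The direction of the summed ratio and of the median was the same in each.

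For erythroid progenitor-like cells the summed ratio of −0.0915 was 0.00568 with TMM scaling, 0.00455 with median-of-ratios scaling, −0.123 with cell cycle genes kept for clustering, −0.124 at resolution 1.0, −0.0768 at resolution 2.5, −0.0803 with every cell weighing alike, −0.0983 with the WT mix of clusters and −0.0726 without Pola1. The members' median of −0.0714 was 0.0258 with TMM scaling, 0.0246 with median-of-ratios scaling, −0.108 with cell cycle genes kept for clustering, −0.0922 at resolution 1.0, −0.0496 with every cell weighing alike and −0.0994 with the WT mix of clusters.

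For GMP-like cells the summed ratio of −0.0604 was 0.0855 with TMM scaling, 0.0869 with median-of-ratios scaling, −0.0895 with cell cycle genes kept for clustering, 0.00701 at resolution 1.0, −0.0919 at resolution 2.5, −0.0742 with every cell weighing alike, −0.0855 with the WT mix of clusters and −0.0388 without Pola1. The members' median of −0.0581 was 0.0877 with TMM scaling, 0.0892 with median-of-ratios scaling, −0.0848 with cell cycle genes kept for clustering, 0.00679 at resolution 1.0, −0.0814 at resolution 2.5 and −0.0964 with the WT mix of clusters. The signs that changed are those of both scalings over all kept cells and in the erythroid progenitor-like and GMP-like classes, and that of resolution 1.0 in GMP-like cells.

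The ratio of shares of cells with at least 5 member UMIs, 1.01 over all kept cells, was 0.964 thinned to 1000 UMIs. In HSC/MPP-like cells, 1.25 was 1.498 thinned to 1000 UMIs, and in GMP-like cells 0.998 was 0.877 thinned to 1000 UMIs and 0.803 with at least 10 UMIs. The HSC/MPP-like values that stayed within the interval of 1.07 to 1.46 ran from 1.079, with the WT mix of clusters, to 1.274, with at least 10 UMIs. Among them were 1.115 thinned to 4000 UMIs, 1.118 with at least 3 UMIs and 1.154 with doublets kept. Because that interval is too wide for a ratio of shares, staying within it does not show that the ratio held. A binomial interval for the ratio was not computed.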
